A study of Mus musculus with 13 samples.

Results

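The genes described here carried an H3K4me3 peak at their promoter in control 4T1 cells and had none listed in Nup210 knockout cells. A gene was a member if it stood in the H3K4me3 list of the control library and was absent from that of the knockout library. By this rule 256 of the 12693 genes in either list were members (2.02%). The control list held 12453 genes and the knockout list 12437 genes, and 12197 genes stood in both. The opposite pattern, a peak in the knockout alone, was found for 240 genes (1.89%). The members were chosen by the presence and absence of H3K4me3 peaks in these lists, so all H3K4me3 values below are a description of the chosen genes and carry no test.

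4T1 is a metastatic mouse cell line that came from a spontaneous mammary tumor of a BALB/cJ mouse. The control cells (sg-Ctrl) carried a nontargeting CRISPR guide, and the knockout cells (KO) were the clone KO-N13, made with Cas9 and a guide to exon 5 of Nup210, which encodes a nuclear pore membrane protein. Both conditions were grown in the same medium with no treatment, and chromatin was sheared with an enzyme before immunoprecipitation. H3K4me3 and H3K27me3 were profiled in both conditions, whereas NUP210 itself and the nuclear pore complex (antibody label NPC) were profiled in sg-Ctrl cells. KO-N13 is 1 of 2 knockout clones of the study, and each target had 1 library per condition. A difference between the libraries therefore cannot be told apart from a difference between cell clones or cultures, and it has no replicate check.

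H3K4me3 is written by the SET1 and MLL methyltransferase complexes around the transcription start sites (TSSs) of active and poised genes. The width of the mark differs between promoters, and weakly or conditionally transcribed genes often carry narrow peaks. H3K27me3 is written by Polycomb repressive complex 2 (PRC2) and covers the bodies of silent developmental and lineage genes, sometimes together with H3K4me3.

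A peak counted for a gene when it overlapped the 4 kb on either side of a TSS. The level of a gene is given as reads per kb of its densest TSS peak, divided by the size of the ChIP library relative to its IgG library (scaled reads per kb). Both conditions were set against the same IgG library, since all 575 H3K4me3 peaks with the same coordinates in both lists held the same number of IgG reads. In H3K4me3 the KO library exceeded the depth of the control library 1.27 times, so a site with the same share of reads would have had more reads in KO. The listed KO peaks nevertheless held fewer reads in all, 24873356 beside 26236314 in sg-Ctrl. Genes in both lists had a median log2 ratio of KO over sg-Ctrl levels of -0.50. The part of this lower KO signal in the absence of weak peaks was not tested. All 12 mammary epithelium markers checked had promoter H3K4me3 in both conditions. The level of Epcam was 544 in the control and 371 in KO, and that of Cdh1 was 455 and 721. The log2 ratios of the 12 ran from -1.0 (Cldn7) to 0.67 (Cdh1), with a median of -0.33. The mark was listed for 1 of 8 leukocyte, 2 of 7 fibroblast and 1 of 4 neuron markers, and for none of the 4 endothelium or the 4 muscle markers. The Nup210 promoter had 885 reads in its sg-Ctrl peak and 913 in its KO peak, but it lies outside the edited exon and so does not check the knockout.

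Of the members, 210 were protein-coding genes, 27 were long noncoding RNA genes and 14 were microRNA genes in the RefSeq annotation. MicroRNA genes made up 5.47% of the members (95% Wilson interval 3.29 to 8.97) and 1.19% of the genes in both lists (1.02 to 1.40). The share was 4.58% among the KO-alone genes (2.58 to 8.02), an interval that overlapped that of the members, and 1.87% among shared genes in the weakest 10% of sg-Ctrl (1.20 to 2.90). These intervals, like all below, cover counting error only. The 14 microRNA genes rested on 9 distinct peaks, because neighbours in a cluster shared a peak, so intervals that treat the genes as separate are too narrow. Among the 14, Mirlet7g, Mir5114 and Mir3962 kept a KO peak at the site. The TSS listed for a microRNA gene is the start of its short annotated gene (70 bp for Mir200b, 90 bp for Mir200a), not a mapped start of a longer transcript. Distances and site classes of these genes refer to that point. The mature sequences of the 2 clusters with the strongest peaks are given as RNA, from RefSeq on GRCm38.p6, with the seed (bases 2 to 8) in capitals, since the seed sets which messages a microRNA can pair with.
miR-200b-3p: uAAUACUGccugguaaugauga
miR-429-3p: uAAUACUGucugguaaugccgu
miR-200a-3p: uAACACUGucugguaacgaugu
let-7a-5p: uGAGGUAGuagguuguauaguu
let-7f-5p: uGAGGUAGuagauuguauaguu
miR-200b-3p and miR-429-3p share 1 seed, and miR-200a-3p differs from it by U4C, counted from the 5′ end of the mature microRNA with the base of miR-200b-3p first. Both let-7 microRNAs share their seed.

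Mir200b, Mir200a and Mir429 form 1 cluster of the miR-200 family, which holds back the mesenchymal program of epithelial cells by repressing Zeb transcripts. All 3 genes rested on 1 sg-Ctrl peak at chr4:156057401-156060400, with 2116 ChIP reads against 27 IgG reads and a level of 665 scaled reads per kb. Its edge lay 1650 bp upstream of Mir200b, on the minus strand. The nearest peak in the KO list was 48400 bp away, and 78.3% of the sg-Ctrl peak lay inside windows in which a KO peak would have been listed. Mirlet7a-1 and Mirlet7f-1, of the let-7 family that restrains growth and stem cell programs, shared a peak at chr13:48540201-48547400 with 1861 reads, 74 IgG reads and a level of 244. That peak began 1928 bp upstream of Mirlet7a-1, and only 28.8% of it lay inside listed windows, so most of the site could not be looked up in KO. Mir130b and Mir301b rested on 1 weak peak of 59 reads at a level of 55.6, which they shared with 2610318N02Rik. Its edge lay 658 bp upstream of Mir130b and 304 bp upstream of Mir301b. The peak of Mir143 and Mir145 held 91 reads and no IgG read (level 107), and that of Mir129-1 also held 91 reads and no IgG read (level 53.6).

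The members were the weak end of the sg-Ctrl list. Their TSS peaks held 24 to 6865 reads, with a median of 76.5, and 57 of them had no IgG read. The median level was 73.8 scaled reads per kb (range 32.3 to 980), beside 543 for genes in both lists, and 9 members lay above that value. Member peaks had a median width of 1200 bp, beside 3600 bp for genes in both lists. When the sg-Ctrl list was divided by level into 10 groups of like size, 225 of the 1246 genes of the weakest 10% were absent from KO (18.1%, 95% Wilson interval 16.0 to 20.3). In the next group 12 of 1246 were absent (0.963%), and each stronger group lost between 0 and 4 genes. The KO list behaved in the same way in the other direction, with 203 of the 1244 genes of its weakest 10% absent from sg-Ctrl (16.3%, 14.4 to 18.5) and a median level of 70.8 for the KO-alone genes. These groups were chosen after the levels were seen.

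**Figure D1:**
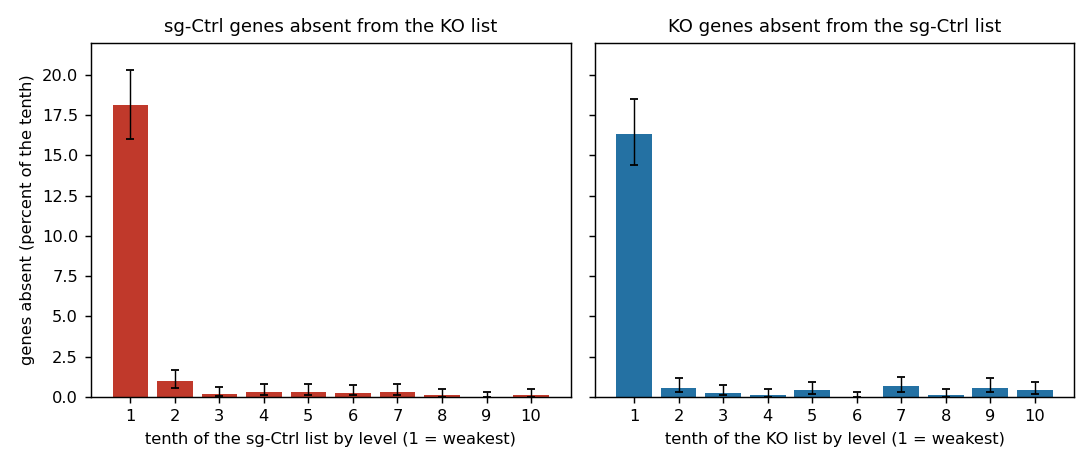
Percent of genes absent from the other H3K4me3 list, by group of level (10 groups from weakest to strongest) in the sg-Ctrl list (left) and the KO list (right); bars are shares and error lines are 95% Wilson intervals. In both directions the absent genes sit mainly in the weakest group, at 18.1% and 16.3%.

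Members just inside the rule were close to the limit of detection. The 5 lowest levels belonged to Jag2, a Notch ligand (89 reads, level 32.3), Slc13a2 (57 reads, 33.6), the basement membrane gene Nid1 (53 reads, 35.7), Ccl2 (119 reads, 37.4) and Slc22a20 (57 reads, 38.4). In the KO list, 1% of genes had a level under 52.6 and 5% a level under 98.7. The largest deposited false discovery rate was 1, for 4931406P16Rik (47 ChIP and 58 IgG reads) and for Mir710 (68 and 125 reads), where the scaled ChIP signal was lower than IgG. Ccdc73 had 47 and 43 reads and a false discovery rate of 0.385, while A930011G23Rik (0.00554) and the shared peak of Pcdhb17 and Pcdhb18 (0.00245) were below 0.01. Of the 256 members, 78 had a level over 98.7, the 5th percentile of the KO TSS peaks, and 67 of these had no KO peak at the site. At 51 of those 67 the sg-Ctrl peak reached within 1 kb of the TSS.

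Absence from the KO list was of several kinds. At 11 members the sg-Ctrl peak overlapped a KO peak that was listed for another gene. All 11 of these peaks lay over 1 kb from the member's TSS, and all 11 were also listed in sg-Ctrl for a gene present in both lists. At the remaining members, the peak covered the TSS at 133, reached within 1 kb at 50 and lay over 1 kb away at 62. For 217 members the nearest listed KO peak was over 10 kb from the sg-Ctrl peak, and no member had one within 1 kb without overlap. Where a gene had several TSSs or peaks, the distance is that of the nearest pair.

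The 11 members with a KO peak at the site were among the strongest, with a median level of 476 (range 162 to 980). Eid3, an inhibitor of the acetyltransferase EP300, ranked highest of all, with 6865 reads and a level of 980 in a peak that ended 3226 bp upstream of its TSS. KO peaks covered 69.7% of that sg-Ctrl peak. Mirlet7g (4788 reads, level 705), Mir5114 (5986 reads, 613), Mip, which encodes a lens water channel (2693 reads, 604), and Tnfrsf9, a co-stimulatory receptor of T cells (2249 reads, 589), were of the same kind, with 71.9%, 78.3%, 76.2% and 72.2% of the peak under KO peaks. Mir3962 (4244 reads, level 476) also belonged here, with 85.7% under KO peaks. The peak list places it on chromosome 7 and the RefSeq microRNA table on chromosome 1, so which gene this peak belongs to is uncertain. The chemokine gene Cxcl9 belonged here as well, because its peak of 701 reads (level 472) began 3921 bp upstream of its TSS and 71.4% of it was covered by KO peaks. These sites kept a KO peak, which did not reach the window of the member. Msantd4 (3173 reads), Tnni1 (1460 reads) and Nr4a3, an orphan nuclear receptor gene (2547 reads), also rested on peaks more than 3 kb from the TSS. Only 16.0%, 6.43% and 2.55% of these peaks lay inside listed windows, so a KO peak on the rest of the site would not have been seen.

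**Figure D2:**
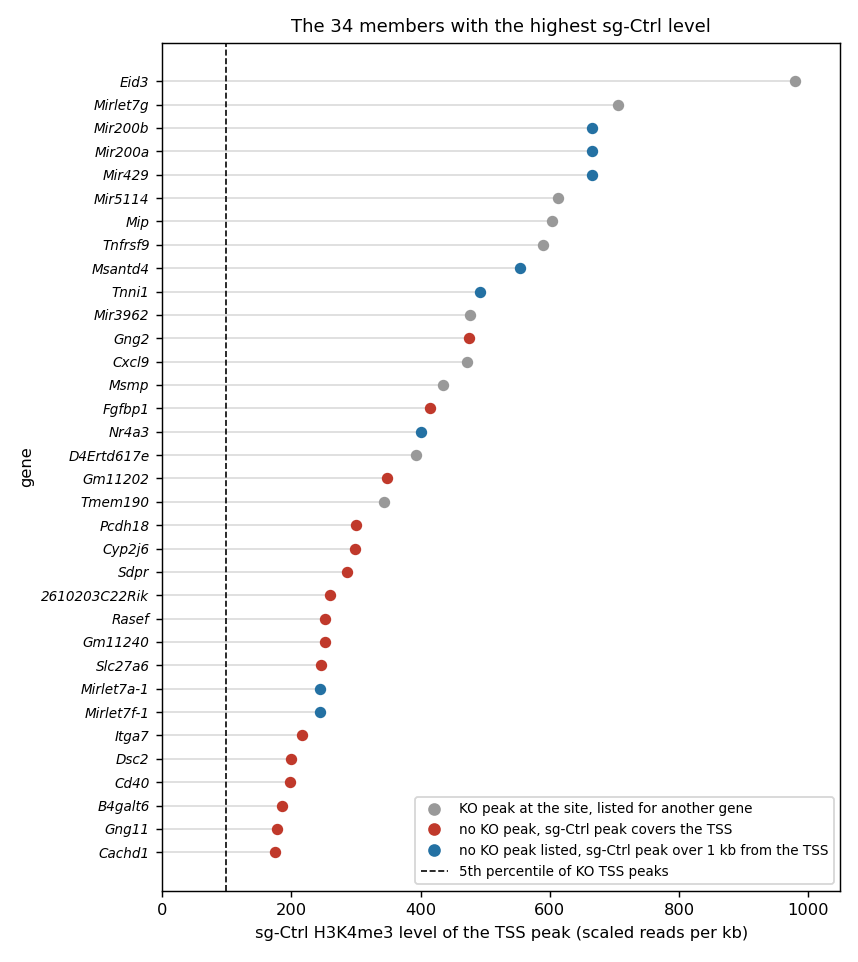
Level of the sg-Ctrl TSS peak (scaled reads per kb) of the 34 members with the highest level, 1 point per gene, coloured by what the KO list held at the site; the dashed line is the 5th percentile of KO TSS peaks (98.7). The 3 genes of the miR-200 cluster share 1 peak at 665, and Gng2 is the highest member whose peak covered the TSS with no KO peak at the site.

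The strongest members with a peak over the TSS and no KO peak there are the ones in which absence from the list meant a promoter without a listed mark in KO. They were singled out after their values were seen. Gng2, which encodes a gamma subunit of heterotrimeric G proteins, had 1109 reads against 57 IgG reads (level 475) at chr14:19975401-19977600, and the nearest KO peak was 103800 bp away. Fgfbp1, a secreted carrier of fibroblast growth factors, had 966 reads against 65 (level 414) at chr5:43980201-43982400. The unnamed gene Gm11202 followed with 664 reads (level 348). Pcdh18, an adhesion protein of the protocadherin family, had 572 reads (level 300), and Cyp2j6, a cytochrome P450 of arachidonic acid metabolism, had 569 reads (level 298). Their nearest listed KO peaks were 683200 and 583400 bp away.

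Sdpr, which encodes a protein of the caveolar coat, had the widest of these peaks at 5400 bp, with 1640 reads against 126 (level 286). Rasef, a Rab family GTPase gene, and its neighbour Gm11240 shared 1 peak of 587 reads (level 252) at chr4:73789201-73791400. The fatty acid transporter gene Slc27a6 had 834 reads (level 246), and Dsc2, a cadherin of desmosomes, had 423 reads (level 199). Itga7, the alpha subunit of a laminin receptor, had 551 reads against 20 (level 216) at chr10:128933401-128935800, with a listed KO peak 7000 bp away. Cd40, a receptor of the tumor necrosis factor receptor family, had 378 reads against 29 (level 198). Gng11, another G protein gamma subunit gene, had 605 reads (level 178).

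The promoters of 3 members are shown for their range in CpG content, as the 250 bases before the RefSeq TSS on GRCm38.p6, 5′ to 3′ on the strand of the gene, with each CpG in capitals. Fgfbp1 is at chr5:43981800-43982049 (minus strand), Rasef at chr4:73790603-73790852 (minus strand) and Cxcl3, a weaker member of the chemokine group, at chr5:90785851-90786100 (plus strand).
Fgfbp1: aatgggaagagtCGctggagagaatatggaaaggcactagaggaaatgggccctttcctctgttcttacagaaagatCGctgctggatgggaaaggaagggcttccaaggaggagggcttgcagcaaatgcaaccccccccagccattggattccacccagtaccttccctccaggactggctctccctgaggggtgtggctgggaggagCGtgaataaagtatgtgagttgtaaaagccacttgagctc
Rasef: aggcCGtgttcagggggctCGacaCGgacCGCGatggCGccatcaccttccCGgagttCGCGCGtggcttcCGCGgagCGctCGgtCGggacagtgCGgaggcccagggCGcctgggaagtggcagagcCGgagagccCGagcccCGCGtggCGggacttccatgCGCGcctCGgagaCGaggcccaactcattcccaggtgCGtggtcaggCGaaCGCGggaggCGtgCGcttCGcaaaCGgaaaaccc
Cxcl3: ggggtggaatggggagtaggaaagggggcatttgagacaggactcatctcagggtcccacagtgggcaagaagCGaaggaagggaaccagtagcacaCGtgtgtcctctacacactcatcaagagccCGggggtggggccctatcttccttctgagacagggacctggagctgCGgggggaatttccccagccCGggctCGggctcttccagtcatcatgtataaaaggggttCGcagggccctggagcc
Rasef had 34 CpGs in these 250 bases, more than 96.6% of the 27025 promoters in the table, whereas Cxcl3 had 7 and Fgfbp1 had 3, beside a median of 6. The windows were set by the annotated TSS alone. Overlap with exons of another transcript was not checked, so the CpGs of a window, that of Rasef included, may lie in transcribed sequence. The Cxcl3 window held 1 match to TATAAA, the core of the TATA box, which matched on either strand in 13% of all promoter windows of this length. A match describes the letters only. A comparison of CpG content over the members is void, because 171 of 256 (66.8%) were in the promoter table, which is under the 80% required.

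The peak covered the TSS at 52.0% of the members (133 of 256, 95% Wilson interval 45.8 to 58.0), against 93.4% of genes in both lists (93.0 to 93.9) and 74.0% of the genes in both lists that fell in the weakest 10% of sg-Ctrl (71.3 to 76.6). A peak over 3 kb from the TSS, near the edge of the window, was found for 13.7% of the members (35 of 256), 22.9% of the KO-alone genes (18.1 to 28.6) and 1.33% of the genes in both lists (1.14 to 1.55). The median level of that weakest 10%, 118, was above that of the members. Among the KO-alone genes 42.5% had a peak over the TSS (36.4 to 48.8), an interval that overlapped that of the members. The 5 KO-alone genes with the highest level, 6430706D22Rik, Lcat, Ehhadh, Stap1 and Ly6g5b, with 3216 to 12897 reads, all overlapped a sg-Ctrl peak, and their peaks lay 1992 to 3966 bp from the TSS.

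**Figure D3:**
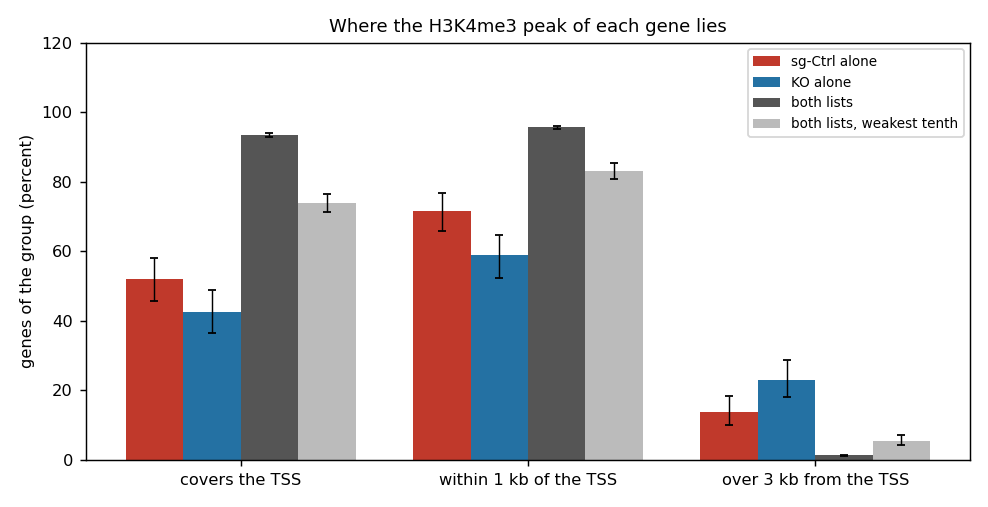
Percent of genes whose H3K4me3 peak covers the TSS, reaches within 1 kb of it or lies over 3 kb from it, for genes in sg-Ctrl alone, in KO alone, in both lists and in both lists within the weakest 10% of sg-Ctrl; error lines are 95% Wilson intervals. The members cover the TSS at 52.0%, below both groups of shared genes.

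The study follows genes of cell migration and adhesion, and 4 of the 9 that it discusses were members (44.4%, beside 2.02% over all genes). The study chose these genes partly on the same samples, so the count is not independent evidence of a direction. Besides Itga7 these were Ccl2, which attracts monocytes, Cxcl3, which attracts neutrophils, and Postn, which encodes the matrix protein periostin. Ccl2 had 119 reads against 56 IgG reads in a 3000 bp peak over the TSS (2.00 times IgG, level 37.4), close to the weakest peaks of the list. Cxcl3 had 275 reads against 10 (level 118) over its TSS at chr5:90785401-90787600. The Postn peak had 77 reads against 3 (level 72.6) and ended 1907 bp upstream of the TSS. Among the others, 4 genes are given here, which kept a peak in KO at a lower level, namely Cxcl1 (574 and 221 in sg-Ctrl and KO), Il1a (276 and 73.8), Itgb2 (327 and 89.5) and Ptk2 (1422 and 726). The median log2 ratio of KO over sg-Ctrl levels over all 12197 genes in both lists was -0.50, and these 4 genes had values of -1.90 to -0.97. The level is per kb of peak, and KO peaks of shared genes were wider, with a median of 4200 bp beside 3600 bp.

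Chemokine ligands, the secreted attractants of leukocytes, held 3 members among the 12 with promoter H3K4me3 in either condition (25%, beside 2.02% over all genes), namely Ccl2, Cxcl3 and Cxcl9. Of these, Cxcl9 kept a KO peak at the site, and Ccl2 and Cxcl3 are migration genes of the study that were already counted above. The 9 others had a median log2 ratio of -1.0, but they were not alike. Values ran from -1.39 to -1.0 for Cxcl1, Cxcl2, Cxcl5, Cxcl10 and Ppbp. For Ccl5, Ccl25, Cx3cl1 and Cxcl16 they ran from -0.4 to 0.3, above the -0.50 of all shared genes. Among cytokines and their receptors 2 of 31 genes were members. Csf2, the gene of granulocyte-macrophage colony-stimulating factor, had 44 reads against 12 (level 51.8), and Tnfsf15 had 154 reads against 42 (level 90.7), while Lifr stood in the KO list alone. Integrins held 1 member of 16 (Itga7) and collagens and matricellular proteins 1 of 26 (Postn). None of the 21 genes of the H3K4 methylation machinery and none of the 13 PRC2 genes with the mark was a member.

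Protocadherins, which mediate contact between cells and are encoded in large part in clusters of near-identical genes, held 6 members and 2 KO-alone genes among 13, beside 2.02% and 1.89% over all genes. Apart from Pcdh18 the members came from the clusters on chromosome 18 and their levels ran from 66.0 to 73.8. Pcdhb17 and Pcdhb18 shared 1 peak of 47 reads against 29 IgG reads, and Pcdhgb8 and Pcdhga12 shared 1 of 70 reads, so these 5 genes stood for 3 peaks. Reads could be split between such similar copies, which leaves their counts uncertain. Olfactory receptor genes, silent in most tissues, held 3 members (Olfr1359, Olfr136 and Olfr432, with 43 to 76 reads) and 3 KO-alone genes among 11. Potassium, sodium and calcium channel genes held 2 members (Kcne3 and Kcnip2) and 9 KO-alone genes among 31. The shares of members were 27.3% and 6.45%, beside 2.02% over all genes, where the KO-alone share was 1.89%.

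In other gene families the share of members lay on both sides of the 2.02% over all genes. It was below it for Zfp zinc finger genes (4 of 308, 1.3%) and Tmem genes (3 of 169, 1.78%). It was above it for solute carriers (6 of 197, 3.05%), Gpr and Adgr receptors (1 of 28, 3.57%), unnamed transcripts (43 of 1014, 4.24%) and cytochrome P450 genes (1 of 16, 6.25%). No member was found among 84 small nucleolar RNA genes, 7 keratins or the 1 vomeronasal receptor gene with the mark. None of the markers of mammary epithelium, leukocytes, endothelium, fibroblasts, neurons or muscle was a member.

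Every autosome and the X chromosome held members, but the shares differed. Chromosome 18 had the highest share, with 20 of its 315 sg-Ctrl genes absent from KO (6.35%, 95% Wilson interval 4.15 to 9.60). Beside the protocadherins these included Dsc2, B4galt6, Slc27a6, Apcdd1, Atp8b1, Piezo2, Spire1, Mir143 and Mir145. Some of these genes shared a peak, as Mir143 and Mir145 did, so intervals that treat genes as separate are too narrow. Chromosome 10 followed with 23 of 612 (3.76%, 2.52 to 5.58), chromosome 4 with 28 of 802 (3.49%, 2.43 to 5.0) and chromosome 13 with 17 of 489 (3.48%, 2.18 to 5.50). Chromosome 8 had the lowest share, 2 of 674 (0.297%, 0.0814 to 1.08), and those 2 were Mir710 and Ccdc79. The KO-alone share on chromosome 18 was 2.64% (1.34 to 5.12) and on chromosome 8 it was 1.75% (1.01 to 3.04). Among genes in both lists, the median log2 ratio of KO over sg-Ctrl was -0.72 on chromosomes 4, 5 and 18, -0.63 on chromosome 10, -0.49 on chromosome 13 and -0.36 on chromosome 8. The part of a difference in DNA copy number between the clone and the control cells was not tested.

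**Figure D4:**
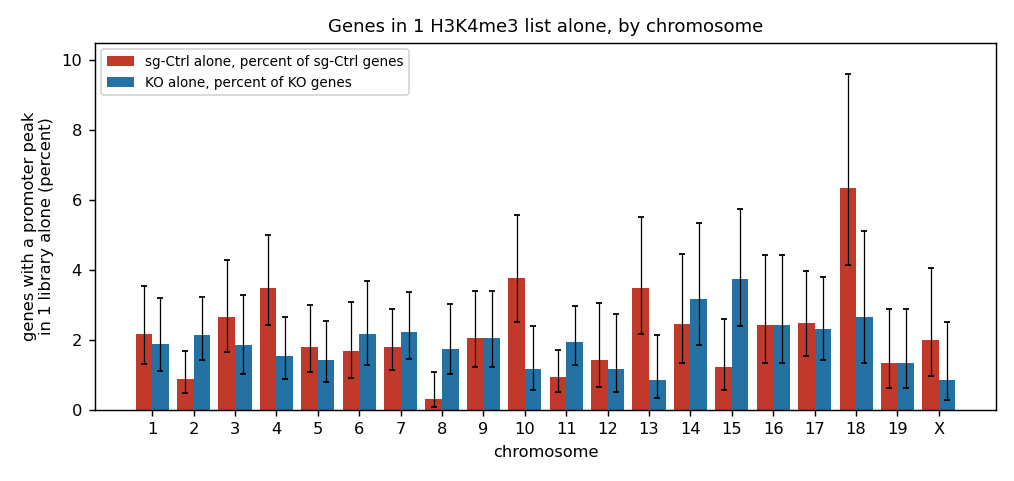
Percent of sg-Ctrl genes absent from the KO list (red) and of KO genes absent from the sg-Ctrl list (blue) on each chromosome; error lines are 95% Wilson intervals. Chromosome 18 has the highest share of members, 6.35%, and chromosome 8 the lowest, 0.297%.

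Neighbouring members were common, mainly because neighbours share a peak. Along the sg-Ctrl list, 51 members stood in 24 runs of 2 or 3 adjacent members, and 15 of the runs rested on a single peak. The 3 longest, of 3 genes each, were Mir429, Mir200a and Mir200b, then Mir130b, Mir301b and 2610318N02Rik, then Pcdhga6, Pcdhgb8 and Pcdhga12. Of the runs of 2 genes, Sp100 and A630001G21Rik had separate peaks, and Pcsk4 and Reep6 shared 1 peak.

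H3K27me3, which the rule did not use, was listed on the gene body of 57 members in sg-Ctrl (22.3%, 95% Wilson interval 17.6 to 27.8, against 6.33% of all genes in either H3K4me3 list) and of 58 members in KO (22.7%, 18 to 28.2, against 5.19%). Shares of this size were also found among other weak promoters. Of the 1021 genes in both lists within the weakest 10% of sg-Ctrl, 25.8% carried H3K27me3 in the control (23.2 to 28.5), against 20.3% in KO (17.9 to 22.8), and among KO-alone genes 33.8% (28.1 to 39.9) and 32.1% (26.5 to 38.2) had it. The members' intervals overlapped those of the weakest 10% in both conditions.

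In most of these members the mark was present in both conditions. H3K27me3 was listed in both for 46 members, in sg-Ctrl alone for 11 (against 1.85% of all genes, here 4.30%, 2.42 to 7.53) and in KO alone for 12 (against 0.709%, here 4.69%, 2.70 to 8.01). In the weakest 10% of the shared genes, 7.35% (5.90 to 9.11) had it in sg-Ctrl alone and 1.86% (1.19 to 2.89) in KO alone. The interval for KO alone thus overlapped that of the weakest 10% narrowly. It treats the 12 genes as separate, although Sp100 and A630001G21Rik shared 1 KO peak, so it is too narrow. Among the KO-alone H3K4me3 genes 5.83% (3.51 to 9.55) had it in sg-Ctrl alone and 4.17% (2.28 to 7.5) in KO alone. Both of these intervals overlapped those of the members. For H3K27me3 the KO library exceeded the control library 3.16 times in depth, and the part of this depth in the counts was not tested. Over the 46 members with the mark in both, the scaled H3K27me3 reads per kb had a median log2 ratio of -0.19, beside -0.17 over 456 genes in both H3K4me3 lists, and 9 of 46 were higher in KO.

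**Figure D5:**
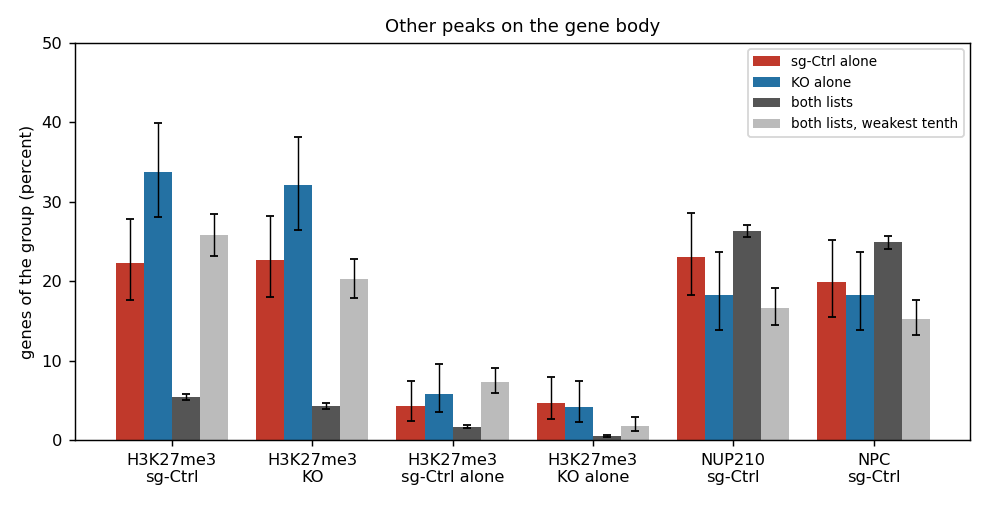
Percent of genes with a peak of H3K27me3 (sg-Ctrl, KO, or 1 condition alone), NUP210 or NPC on the gene body, for the same 4 groups of genes; error lines are 95% Wilson intervals. The members have H3K27me3 at 22.3% and 22.7%, near the weakest 10% of shared genes and above all shared genes.

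The members with the most H3K27me3 in KO were Ccdc73 (scaled H3K27me3 reads per kb of 109 in the control, 75.7 in KO), Sdpr (42.7 and 66.6), Samsn1 (35.7 and 60.0), Gng11 (62.3 and 59.6) and Tnfaip8l3 (61.2 and 56.4). Sdpr and Samsn1 thus had more of the mark in KO, and the other 3 had less. The peak of Samsn1, an adaptor gene of lymphoid cells, spanned 122 kb in sg-Ctrl and 170 kb in KO, with 3690 and 27315 reads before scaling for depth. It covered 50.5 kb of the gene body in both conditions, so the wider span lay outside the gene.

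Gng2 was among the 12 members with H3K27me3 in KO alone. It had no H3K27me3 peak listed in sg-Ctrl, and in KO 3 peaks with 3988 reads covered 63.7 kb of its gene body (up to 2.47 times IgG) and met its sg-Ctrl H3K4me3 site. Postn had 2 KO peaks with 2092 reads (up to 4.14 times IgG), away from its H3K4me3 site. Dyx1c1 had 4319 reads in 1 KO peak of 53 kb (4.19 times IgG), of which 6.22 kb lay on the gene body. Btnl10 had 957 reads in 1 KO peak of 16 kb (2.55 times IgG), of which 7.94 kb lay on the gene body. Both peaks lay over the H3K4me3 site. A630095E13Rik was the remaining gene of the 12 with the KO mark over the site. Others of the 12 were weaker or not separate. The only KO peak of Mb21d2 was below IgG (229 against 92 reads, 0.93 times IgG after scaling). Sp100 and A630001G21Rik shared 1 KO peak of 775 reads (1.78 times IgG). In all, H3K27me3 met the H3K4me3 site at 10 members in both conditions, at 6 in sg-Ctrl only and at 8 in KO only. These counts were not made for other genes, so they have no background share beside them. The H3K27me3 KO library was also 3.16 times as deep, and the part of depth was not tested. The 8 were Gng2, Gng11, Rspo3, Epdr1, Tbcel, Dyx1c1, Btnl10 and A630095E13Rik, of which Rspo3 encodes a secreted amplifier of Wnt signalling. Of the 4 migration genes among the members, Ccl2, Cxcl3 and Itga7 had no H3K27me3 peak on the gene body in either condition.

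NUP210 peaks in sg-Ctrl lay on the gene body of 59 members (23%, 95% Wilson interval 18.3 to 28.6), against 26.1% of all genes in either H3K4me3 list. NPC peaks lay on 51 members (19.9%, 15.5 to 25.2), against 24.7%. Both of the members' intervals held the share over all genes. In the weakest level group of sg-Ctrl, genes in both lists had NUP210 peaks at 16.7% (14.5 to 19.1) and NPC peaks at 15.3% (13.2 to 17.6). For the KO-alone genes each share was 18.3% (13.9 to 23.7). The members' intervals overlapped all of these, for NUP210 in the weakest group only narrowly. Most of the members' peaks were barely above IgG, with a median highest fold of 1.27 for NUP210 and 1.16 for NPC. A fold of at least 2 was reached by 165 of the 12197 genes in both lists for NUP210 (1.35%) and by 23 for NPC (0.189%). Of the 256 members, 5 reached it for NUP210 and 2 for NPC. The 5 with the highest NUP210 fold were Epdr1 (3.34), Phactr2 (2.43), Pdzrn4 (2.24), Ccdc73 (2.17) and Txlnb (2.07), and in Ccdc73 alone among them did a NUP210 peak meet the H3K4me3 site. The NUP210 peak met the H3K4me3 site at 21 members, a count that was not made for other genes either. Cxcl3 had 1 NUP210 peak (1.14 times IgG) and 1 NPC peak (0.864) on its gene body, Postn had 1 of each (1.07 and 1.29), whereas Ccl2 and Itga7 had neither.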

How the data were processed

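ChIP-seq of 4T1 cells was analysed for H3K4me3 and H3K27me3 (sg-Ctrl and KO) and for NUP210 and NPC (sg-Ctrl), with 1 library per target and condition, 6 in all. The authors called peaks with SICER against IgG, with a window of 200 bp for H3K4me3 and 1000 bp for H3K27me3 and NUP210, and intersected them with TSS windows or gene bodies. For NPC the window is not given in the sources used here. The deposited lists give ChIP and IgG read counts per peak, a p-value and false discovery rate, and the fold over IgG as a ratio scaled by library size. They also hold other values in bp, namely the gene length and the overlap, as deposited by the authors. The submitters' processing notes name Trimmomatic, STAR, Picard and Bowtie2 and the builds mm9, mm10 and NCBIM37 without roles. For 94.8% of 9955 genes a listed TSS lay within 500 bp of the RefSeq TSS on GRCm38.p6, the assembly of mm10, whose coordinates are used here.

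Peaks were compared with Python 3.11.15, pandas 2.3.3, numpy 2.4.6 and scipy 1.17.1, with an overlap of 1 bp or more counted as shared. Read counts come only with listed peaks, so a gene without a listed KO peak has no KO read count. The ChIP over IgG library size was recovered from the deposited fold. Reads in the distinct listed peaks numbered 26236314 in sg-Ctrl and 24873356 in KO for H3K4me3. Shares have 95% Wilson intervals. With 1 library per condition no test between conditions was made. The code was tested on simulated peak lists.

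The members and gene lists were chosen with earlier results of these data known. Named genes were the 12 members with the highest reads per kb, members of the gene lists, the 5 with the largest false discovery rate, the 5 with the lowest reads per kb, the 5 with the most H3K27me3 in KO and up to 5 with it in KO alone, the 5 with the highest NUP210 fold, the 5 strongest KO-alone genes and the 5 longest runs of neighbours. The site classes, the 10 groups of level, the 5th percentile limit and further strong or chromosome 18 members were chosen after the values were seen. The series also holds 4 RNA-seq samples, not analysed here, and the 3 IgG samples enter as control read counts. The values of 1 gene of the migration list are not reported here.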

Additional observations from a re-analysis of the deposited data

How the results depend on the processing

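Of 29 alternatives, 23 left the count within 1.5 times the reported one or the median within its limit. With at least 100 reads per peak required in both lists, the sg-Ctrl-alone genes fell to 156 while the KO-alone genes numbered 268, so the longer of the 2 groups switched (the KO library was the deeper, and the cause was not tested). Requiring a level above the 5th percentile of KO TSS peaks, an alternative chosen after seeing the data, left 78 members. As fold over IgG the median level was 13.9, which is another unit. At a fold of at least 2, NUP210 peaks remained on 5 members and NPC peaks on 2, and at a false discovery rate of at most 0.01 NPC peaks remained on 28. The other alternatives gave 218 to 267 sg-Ctrl-alone genes and 194 to 238 KO-alone genes. The planned comparison of CpG-rich promoters was not run, because only 66.8% of the members had a promoter sequence, under the 80% required. No paired analysis was possible because each target and condition had 1 library.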
